A study of Mus musculus with 10 samples.

Results

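The genes described here are 7 of the core circadian clock, Per1, Per2, Per3, Cry1, Arntl, Nr1d1 and Nr1d2, and the 3 PAR bZIP transcription factor genes Dbp, Tef and Hlf. They were taken by their symbols from a table of 18725 genes measured by RNA sequencing, in which all 10 were found, and all 10 passed the filter on low counts that left 14862 genes for testing. The tissue was the outer sulcus of the mouse cochlea, an epithelial strip along the outer wall of the duct, dissected with the spiral ligament under it at postnatal day 10. There were 5 euthyroid and 5 hypothyroid libraries of C57BL/6J mice. The hypothyroid pups were born to and nursed by mothers that from embryonic day 17 drank water with methimazole at 0.05%, with sodium perchlorate monohydrate at 1.0% and sweetened with sucrose at 5.0%, and the mothers of the euthyroid pups drank vehicle, both until day 10 after birth. Methimazole blocks thyroid hormone synthesis and perchlorate blocks iodide uptake by the thyroid, and the treatment was systemic. Which mother a library came from is not given in the sources used here, so litter and treatment cannot be told apart. One protocol text in the labels names the cartilage of the femoral head at a later age, whereas the other labels name the cochlea.

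The circadian clock is a feedback loop of transcription. The proteins of Arntl (also called Bmal1) and Clock bind E-box sequences and switch on the Per and Cry genes, whose proteins then inhibit them, and also switch on Nr1d1 and Nr1d2 (REV-ERB alpha and beta), nuclear receptors that repress Arntl through RORE sequences. Dbp, Tef and Hlf are output factors of the loop that bind D-box sequences, and cochlear cells are known to hold a working clock of their own. RNA of most of these genes rises and falls over the day. The labels used here give no hour of dissection, so the time of day and the treatment cannot be told apart in any of the levels below.

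The libraries held 19298145 to 20063961 estimated counts. Of the 14862 genes tested, 71.8% passed edgeR's quasi-likelihood test at an adjusted p of 0.05, 37.7% higher and 34.1% lower in hypothyroid tissue, and the median log2 fold change was 0.04. Genes of spiral ligament fibrocytes and of the outer sulcus and root cells were present in every library, with 6 of 6 markers of each detected in both groups. The summed level of the 6 outer sulcus and root cell markers ran from 4612 to 5247 CPM (counts scaled to a common library size) in euthyroid and from 1733 to 2445 CPM in hypothyroid libraries, and that of the 6 fibrocyte markers from 17383 to 20877 and from 10369 to 13110 CPM. Of the outer sulcus and root cell markers 5 fell and Anxa1 did not pass, and Epyc made up most of their sum in both groups. The fibrocyte markers did not move together. Otos, Coch and Car3 fell, Otos from 3906 ± 766 to 56.1 ± 20.7 CPM, while Tbx18 (547 ± 34.6 to 748 ± 60.7 CPM) and Pou3f4 rose and Otor did not pass. Osteoblast and osteocyte markers (6 of 6 detected) summed to 973 to 1483 against 25.1 to 39.2 CPM, melanocyte markers (5 of 5) to 396 to 604 against 859 to 1646 CPM, and macrophage markers (5 of 5) to 182 to 202 against 249.8 to 301 CPM. Hair cell markers (6 of 6) summed to 39.4 to 91.6 against 30.2 to 38.8 CPM, and neuron markers (4 of 4) to 11.2 to 16.2 against 1.18 to 3.71 CPM, and red cell markers (3 of 3) to 258 to 479.8 against 301 to 424 CPM. Of the neuron markers, Tubb3 made up most of the euthyroid sum and fell, from 10.1 to 15.0 CPM down to 0.0471 to 2.41 CPM. Nefh rose, and Nefl (39 against 9 counts over the group) and Snap25 (38 against 36) were too low to be tested. Of the hair cell markers, Slc26a5 was at 0 in all hypothyroid libraries, Ocm (30.02 ± 13.3 to 0.0378 ± 0.0395 CPM) and Strc were near 0 there, and Otof fell, whereas Myo7a rose from 12.5 ± 1.38 to 30.8 ± 3.01 CPM and made up most of the hypothyroid sum. In such bulk tissue fewer cells of a type and less RNA per cell cannot be told apart, and the part of these shifts in the results below was not tested.

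Of the 10 clock and PAR bZIP genes, 7 fell in hypothyroid tissue, beside 34.1% of all genes (Nr1d1, Dbp, Hlf, Nr1d2, Per3, Arntl and Tef), 1 rose, beside 37.7% (Cry1), and 2 did not pass (Per1 and Per2). Their median log2 fold change was -0.48, beside 0.04 over all genes tested. The 7 that fell also had no overlap between the groups, beside 28.5% of all genes tested that were lower without overlap (29.4% were higher and 57.9% either). Nr1d1, Dbp and Hlf fell at least 2-fold, 3 of the 10 genes beside 7.91% of all genes tested. The sizes were uneven: 4-fold and more for Nr1d1 alone, and below 1.3-fold for Arntl, Tef and Cry1. With scaling by library size alone, which moved the median of all genes to 0.30, 5 of the 7 still fell and Arntl and Tef did not pass, while Cry1 and Per2 were both called higher.

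**Figure D1:**
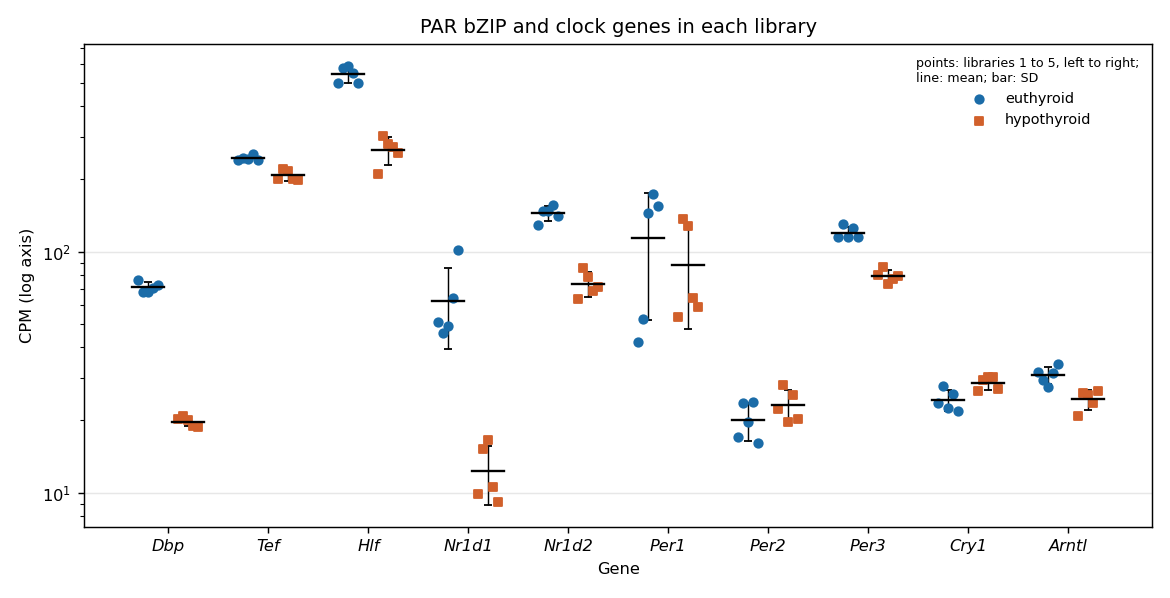
Level of each of the 10 genes in CPM on a log axis, with 1 point per library in the order of replicates 1 to 5, a line at the mean and a bar for the SD. Dbp and Nr1d1 show the widest gaps between euthyroid (circles) and hypothyroid (squares) libraries, and Per1 splits into high and low libraries within each group.

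Among the PAR bZIP genes, Dbp, whose protein drives daily output genes in many tissues, fell most. In GRCm38 it lies at chr7:45705088-45710203 on the plus strand. It had 75.9, 68.1, 67.7, 70.9 and 72.7 CPM in euthyroid replicates 1 to 5 and 20.2, 20.7, 20.01, 18.97 and 18.7 CPM in hypothyroid replicates 1 to 5. The groups were far apart and each was tight, with a coefficient of variation of 4.78% in euthyroid and 4.38% in hypothyroid libraries. Dbp averaged 71.1 ± 3.40 CPM in euthyroid and 19.7 ± 0.864 CPM in hypothyroid tissue (SD over 5 libraries each), 3.61-fold lower, with a log2 fold change of -1.85 (SE 0.05) and an edgeR adjusted p of 3.41e-13. Some 18.0% of the exonic bases of Dbp, 539 of 2993, also belong to exons of Sphk2 on the opposite strand. Sphk2, a sphingosine kinase gene, fell less, from 41.1 ± 1.24 to 28.3 ± 1.12 CPM (log2 fold change -0.54), and whether the libraries kept the strand was not stated.

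Hlf (chr11:90336536-90390895, minus strand), the most abundant of these, was measured at 500.2, 579, 589, 551 and 502 CPM in euthyroid replicates 1 to 5 and at 209, 302, 280.5, 271 and 257 CPM in hypothyroid replicates 1 to 5. All hypothyroid libraries lay below all euthyroid ones, and hypothyroid replicate 1 was the lowest. The fall was 2.06-fold, from a mean of 544 ± 41.7 CPM to one of 264 ± 34.7 CPM (SD over 5 libraries), with a log2 fold change of -1.05 ± 0.09 (SE; edgeR adjusted p = 8.14e-08). Tef (chr15:81802421-81826863, plus strand), the remaining factor, had 239, 244, 242, 254 and 239 CPM in euthyroid and 199.6, 219.6, 216, 201 and 199 CPM in hypothyroid libraries. These groups did not overlap either, but the difference was small (1.18-fold lower, log2 fold change -0.24 ± 0.04 (SE), edgeR adjusted p = 0.000164), and the direction turned with library sizes alone (0.0285) and on FPKM (0.0249). Tef stood at 133 ± 4.21 TPM in euthyroid and 132 ± 4.33 TPM in hypothyroid tissue. TPM is transcript abundance corrected for length, without the scaling factors between libraries that CPM uses here.

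Levels of different genes were compared per length, in TPM. In euthyroid tissue Hlf led the 10 genes with 233 ± 18.5 TPM (SD, n = 5), followed by Tef with 133 ± 4.21 and Dbp with 99.0 ± 5.04 TPM, and no library of one overlapped with the next. Nr1d2 (70.7 ± 4.498 TPM), Per1 (54.3 ± 28.7), Nr1d1 (51.5 ± 18.4) and Per3 (45.5 ± 3.30) came next, and each of these overlapped with its neighbour in the order. Arntl (25.9 ± 2.22 TPM), Cry1 (18.4 ± 2.10) and Per2 (8.10 ± 1.43) closed the order without overlap. In hypothyroid tissue Hlf (133 ± 16.2 TPM) and Tef (132 ± 4.33) overlapped at the top. Per1 (49.6 ± 21.9 TPM), Nr1d2 (42.1 ± 4.56), Per3 (35.2 ± 2.33) and Dbp (32.3 ± 1.14) followed, each overlapping with the next. Cry1 (25.2 ± 1.29 TPM) and Arntl (24.1 ± 2.43) overlapped, as did Nr1d1 (11.8 ± 3.02) and Per2 (10.9 ± 1.59). Dbp thus moved from place 3 to place 6 of 10 and Nr1d1 from place 6 to place 9.

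The makeup of the PAR bZIP RNA pool differed between the groups. The summed level of Dbp, Tef and Hlf was 465 ± 18.0 TPM in euthyroid and 297 ± 19.6 TPM in hypothyroid tissue (SD, n = 5 each). Dbp made up 21.3% ± 1.63 of that sum in euthyroid and 10.9% ± 0.917 in hypothyroid libraries, Tef 28.7% ± 0.808 and 44.5% ± 1.92, and Hlf 50.01% ± 2.27 and 44.6% ± 2.82. Ratios of related genes within a library do not depend on scaling between libraries, and 10 such ratios, chosen after the values were seen, were compared by a two-sided exact permutation test, in which 5 against 5 can give no p below 0.00794. The log2 ratio of Dbp to Tef was -1.65, -1.84, -1.84, -1.84 and -1.72 in euthyroid replicates 1 to 5 and -3.31, -3.40, -3.43, -3.41 and -3.41 in hypothyroid replicates 1 to 5. Dbp fell against Tef 3.06-fold (difference -1.61, SE 0.04) and against Hlf 1.74-fold (-0.80, SE 0.12), and Tef rose against Hlf 1.76-fold (0.82, SE 0.08). In each of these 3 ratios the groups did not overlap (exact p = 0.00794, adjusted over 10 ratios 0.00992). Between these libraries Dbp, Hlf and Tef thus differed by unlike amounts. Any ratio without overlap takes this lowest exact p, so for ratios chosen after seeing the values it adds nothing to the separation.

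**Figure D2:**
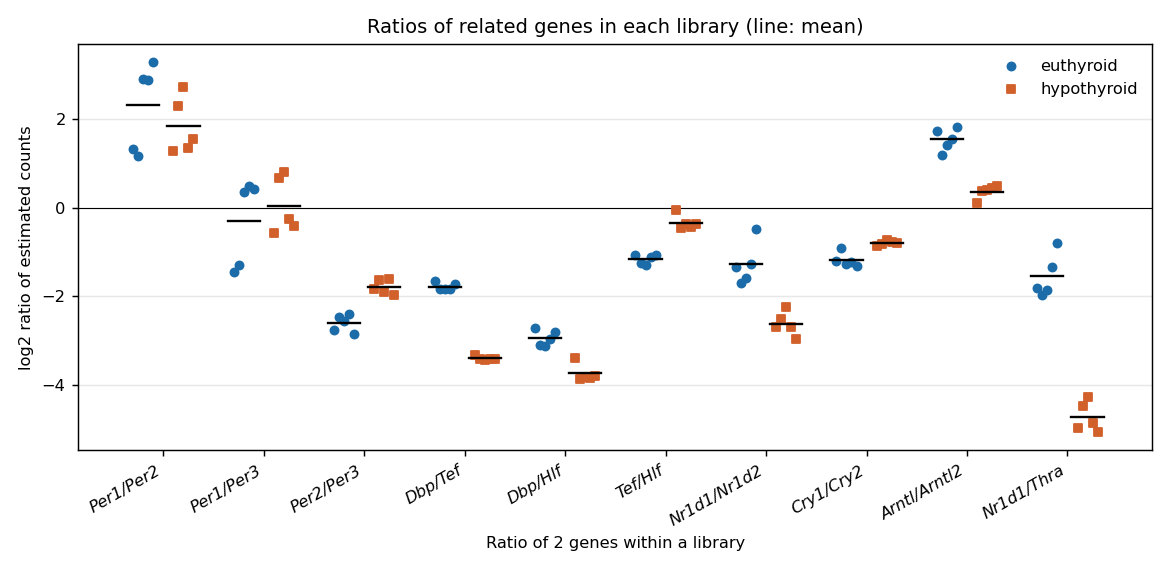
Log2 ratio of the estimated counts of 2 related genes within each library, with euthyroid libraries as circles, hypothyroid libraries as squares and a line at each mean. The groups are separate in 8 of the 10 ratios and overlap in the ratios of Per1 to Per2 and of Per1 to Per3.

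The REV-ERB genes fell as well, Nr1d1 more than Nr1d2. Nr1d1 had 51.2, 45.8, 49.0, 64.3 and 101 CPM in euthyroid and 9.87, 15.1, 16.6, 10.6 and 9.14 CPM in hypothyroid replicates 1 to 5. Euthyroid replicate 5 stood above its group, and the highest hypothyroid library was still well below the lowest euthyroid one. Means were 62.3 ± 22.8 and 12.3 ± 3.36 CPM (SD over 5 libraries), a 5.08-fold fall (log2 fold change -2.35 ± 0.28 (SE), edgeR adjusted p = 4.90e-05), and the log2 fold change was -2.11 without euthyroid replicate 5. Nr1d2 (chr14:18204054-18239127, minus strand) was measured at 129, 148, 147, 156 and 141 CPM in euthyroid and at 63.4, 85.7, 78.5, 68.4 and 71.1 CPM in hypothyroid replicates 1 to 5. It fell 1.96-fold, a change of -0.97 ± 0.07 on the log2 scale (SE, edgeR adjusted p = 2.59e-08), with a gap between the groups. Against Nr1d2, Nr1d1 fell 2.54-fold within libraries (difference -1.34, SE 0.24, exact p = 0.00794, adjusted over 10 ratios 0.00992).

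Nr1d1 shares the locus of the thyroid hormone receptor gene Thra, which runs on the opposite strand. In the GENCODE annotation of GRCm38, Nr1d1 lies on the minus strand of chromosome 11 from 98767932 to 98775333 and Thra on the plus strand from 98740638 to 98769006. Their exons share 263 bases, which is 8.55% of the exonic bases of Nr1d1 and 5.70% of those of Thra. Thra moved the other way, from 179.8, 178, 176, 161 and 175 CPM in euthyroid to 306, 334, 317, 304 and 303 CPM in hypothyroid replicates 1 to 5 (log2 fold change 0.84 ± 0.05 (SE), edgeR adjusted p = 2.66e-10). The 2 genes together, summed, rose with a log2 fold change of 0.46 (edgeR adjusted p = 6.39e-06). Within libraries the ratio of Nr1d1 to Thra fell 8.98-fold (log2 difference -3.17, SE 0.27, exact p = 0.00794, adjusted 0.00992). Reads in the shared bases could not be assigned by strand here, and a share of Nr1d1 reads that came from Thra was not tested.

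The 3 Period genes, which encode the inhibitors that set the length of the cycle, behaved differently. Per3 (chr4:151003652-151044665, minus strand) had 114, 129.8, 115, 125 and 115 CPM in euthyroid and 79.7, 86.2, 73.5, 76.9 and 78.9 CPM in hypothyroid replicates 1 to 5. Its groups did not overlap, and it fell 1.52-fold, a change of -0.60 ± 0.05 on the log2 scale (SE, edgeR adjusted p = 7.17e-08). Per2 (chr1:91415982-91459324, minus strand) was the least abundant, at 17.0, 23.6, 19.6, 23.7 and 16.1 CPM in euthyroid and 22.2, 27.9, 19.6, 25.3 and 20.2 CPM in hypothyroid replicates. Its groups overlapped (log2 fold change 0.20 ± 0.13 (SE), edgeR adjusted p = 0.165), and the higher direction passed under other settings: the edgeR adjusted p came to 0.00434 when scaled by library size, 0.0342 with upper quartile factors, 0.0288 with the replicate block, and the limma adjusted p ran from 0.00409 to 0.0123 on FPKM or TPM. Relative to Per3, Per2 rose 1.75-fold within libraries (log2 difference 0.81, SE 0.11, exact p = 0.00794, adjusted over 10 ratios 0.00992).

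Per1 (chr11:69095217-69109960, plus strand), which is also an early target of glucocorticoid and neuronal signals in many tissues, showed no difference between the groups beyond its spread. It had 42.1, 52.7, 145, 173 and 154 CPM in euthyroid replicates 1 to 5 and 53.4, 136, 128, 64.4 and 58.8 CPM in hypothyroid replicates 1 to 5. In the euthyroid group replicates 1 and 2 were low and replicates 3, 4 and 5 high, and in the hypothyroid group replicates 2 and 3 were high and the others low, so that each group held libraries at about both levels. The log2 fold change was -0.36 (SE 0.49 over 5 and 5 libraries, edgeR adjusted p = 0.529). The coefficient of variation of Per1 was 54.0% in euthyroid and 45.9% in hypothyroid libraries, and only 0.105% and 0.315% of 11413 genes averaging 5 CPM or more varied more. The median over those genes was 6.49% and 7.12%. Nr1d1 came next among the 10 genes with 36.6% and 27.4%, followed by Per2 with 17.9% and 15.2%, whereas Tef varied by 2.63% and 4.80%.

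The high and low libraries of Per1, which set the pattern, were looked for in the other 9 genes. Hypothyroid replicates 2 and 3 were the 2 highest of their group in 4 of these 9, Nr1d1, Nr1d2, Tef and Hlf, beside 13.8% of all genes tested. Euthyroid replicates 1 and 2 were the 2 lowest of their group in 0 of the 9, beside 14.6% of all genes tested. In the same euthyroid libraries 5 of the 10 other loop genes reported here were lowest, Rora, Nfil3, Bhlhe40, Bhlhe41 and Ciart. Hypothyroid replicates 2 and 3 were the highest pair in 2 of these 10, Arntl2 and Rora, so Rora held both parts of the pattern. Ciart, a repressor of the clock, had 4.27, 4.90, 11.2, 15.2 and 17.0 CPM in euthyroid replicates 1 to 5 and 3.41, 3.19, 4.63, 1.89 and 2.40 CPM in hypothyroid replicates. Its euthyroid order was close to that of Per1 and its hypothyroid order was not.

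Genes that answer to stimulation and to stress hormone were set beside these libraries. Fosb, Tsc22d3 and Sgk1 shared both the euthyroid and the hypothyroid part of the Per1 pattern, and the others shared only 1 part or none. Of 8 immediate early genes, 5 had euthyroid replicates 1 and 2 as their lowest pair (Fosb, Junb, Ier2, Atf3 and Nr4a1), and 1, Fosb, had hypothyroid replicates 2 and 3 as the highest pair. Of the same 8 genes, Fos, Egr1, Junb, Ier2 and Nr4a1 were highest in hypothyroid replicate 1, where Per1 was low. Atf3 and Dusp1 were lowest of their group there, as Per1 was, and Fosb (0.748 CPM) was close to its lowest (0.739 CPM). Nr4a1, an orphan nuclear receptor gene induced within minutes, had 32.4, 44.9, 133, 161 and 76.6 CPM in euthyroid replicates and 13.6, 12.6, 12.01, 7.85 and 9.66 CPM in hypothyroid ones. Of 5 genes of the glucocorticoid response, 4 had hypothyroid replicates 2 and 3 as the highest pair (Fkbp5, Tsc22d3, Sgk1 and Zbtb16), and 3 had euthyroid replicates 1 and 2 as the lowest (Tsc22d3, Sgk1 and Errfi1). Fkbp5, a chaperone gene induced by glucocorticoids, had 4.92, 8.30, 6.94, 10.2 and 7.04 CPM in euthyroid and 9.49, 67.0, 27.9, 27.8 and 18.3 CPM in hypothyroid replicates 1 to 5. Between the groups, 7 of the 8 immediate early genes fell and 0 rose, beside 34.1% of all genes tested that fell and 37.7% that rose. Of the 5 glucocorticoid response genes 2 rose, Fkbp5 and Zbtb16, 2 fell, Sgk1 and Errfi1, and Tsc22d3 did not pass. The part of these responses in the levels of Per1 was not tested.

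**Figure D3:**
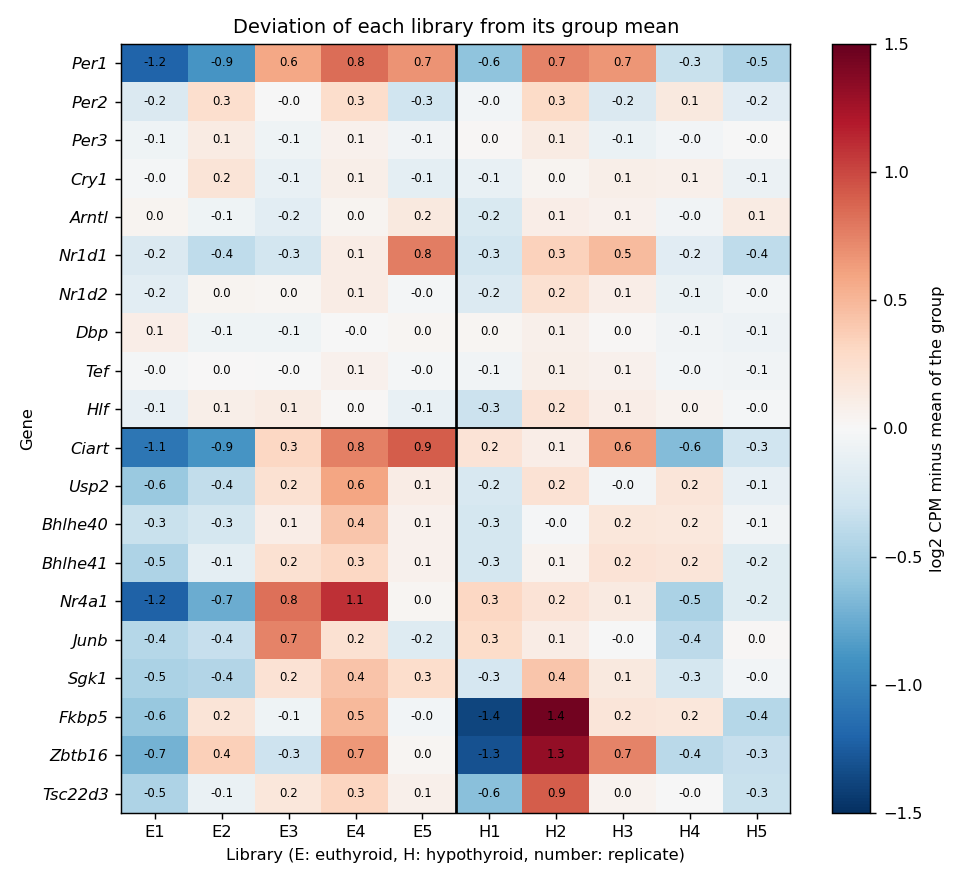
Log2 CPM of each library minus the mean of its group, for the 10 genes (above the line) and 10 others chosen after their values were seen, with columns E1 to E5 for euthyroid and H1 to H5 for hypothyroid replicates. Per1 is low in E1, E2, H1, H4 and H5 and high in the rest, while Dbp, Tef and Per3 vary little.

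Cry1 (chr10:85131700-85185064, minus strand), whose protein inhibits the Arntl and Clock pair and peaks later than the Per genes, was the only one of the 10 that rose in the test as reported. It had 23.6, 27.6, 22.3, 25.7 and 21.9 CPM in euthyroid and 26.4, 29.4, 30.2, 30.1 and 26.9 CPM in hypothyroid replicates 1 to 5, and the groups overlapped. The means were 24.2 ± 2.41 and 28.6 ± 1.83 CPM (SD over 5 libraries), a 1.18-fold rise (log2 fold change 0.24 ± 0.07 (SE), edgeR adjusted p = 0.00874). Relative to its paralog Cry2 it rose 1.31-fold within libraries (log2 difference 0.39, SE 0.07, exact p = 0.00794, adjusted over 10 ratios 0.00992). Cry2 itself went from 55.0 ± 3.12 to 49.6 ± 2.19 CPM (log2 fold change -0.15, edgeR adjusted p = 0.0171), a direction that turned with library sizes alone (0.12) and on FPKM (0.11) and TPM (0.0722).

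Arntl (chr7:113207465-113314126, plus strand), the only single clock gene whose loss stops the rhythm, had 31.5, 29.2, 27.4, 31.5 and 34.0 CPM in euthyroid and 20.7, 26.0, 25.5, 23.5 and 26.4 CPM in hypothyroid replicates 1 to 5. The groups came close without overlapping. Means of 30.7 ± 2.52 and 24.4 ± 2.33 CPM (SD over 5 libraries) made a 1.26-fold fall (log2 fold change -0.33 ± 0.08 (SE), edgeR adjusted p = 0.00117), but it fell by only 0.07 on the log2 scale, without passing, with library sizes alone (edgeR adjusted p = 0.427). It did not pass with limma on FPKM (log2 change -0.06, adjusted p = 0.442) or TPM (-0.10, adjusted p = 0.240) either. Its paralog Arntl2 rose 1.78-fold, from 10.7 ± 1.36 to 19.02 ± 1.03 CPM (edgeR adjusted p = 5.28e-07). The log2 ratio of Arntl to Arntl2 was 1.72, 1.18, 1.40, 1.53 and 1.82 in euthyroid and 0.10, 0.37, 0.39, 0.44 and 0.48 in hypothyroid replicates, a 2.26-fold lower ratio (exact p = 0.00794, adjusted over 10 ratios 0.00992).

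Of the 10 other loop genes reported here, partners and regulators of Arntl among them, 8 fell and 2 rose (Arntl2 and Nfil3), beside 34.1% and 37.7% of all genes tested. Npas2, which can stand in for Clock as the partner of Arntl, was 3.22-fold lower (20.4 ± 0.945 against 6.35 ± 1.13 CPM, edgeR adjusted p = 1.51e-09), and Clock was 1.61-fold lower (89.8 ± 6.69 against 55.7 ± 3.70 CPM, edgeR adjusted p = 7.76e-08). Rora and Rorb, whose proteins compete with the REV-ERBs for RORE sequences and activate Arntl, both fell. Rorb fell 23.1-fold, from 22.04, 18.7, 18.9, 21.0 and 17.1 CPM in euthyroid to 0.702, 1.14, 0.434, 1.2001 and 0.707 CPM in hypothyroid replicates 1 to 5 (log2 fold change -4.53 ± 0.17 (SE), edgeR adjusted p = 8.33e-12). Rora fell 3.09-fold from 85.6 ± 11.8 to 27.7 ± 3.27 CPM.

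Nfil3, a repressor that competes with Dbp, Tef and Hlf for D-boxes, was 1.78-fold higher (7.13 ± 1.53 against 12.7 ± 2.39 CPM, SD over 5 libraries, edgeR adjusted p = 0.000177). The E-box repressor genes Bhlhe40 and Bhlhe41 fell 2.29-fold and 1.62-fold, and Ciart fell 3.38-fold with overlapping groups (edgeR adjusted p = 0.00493). Grouped by the time at which textbook accounts place their peaks, the 10 genes driven by E-boxes and D-boxes (8 of the 10 described here, with Ciart and Bhlhe41) gave 8 lower, 0 higher and 2 not passing. The 5 genes reported here that such accounts place on the RORE side (Arntl, Clock, Npas2, Nfil3 and Cry1) gave 3 lower and 2 higher. Cry1, placed there by its late peak, is also switched on through E-boxes and had an E-box match near its start. The groups are thus not separate classes of control, and the counts depend on where Cry1 is placed. Over all genes tested the shares were 34.1% lower and 37.7% higher, and the difference between these groups was not tested.

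Genes for the turnover of clock proteins were kept on a list with Timeless, and each of the 5 reported here rose, most of them slightly, beside 37.7% of all genes tested. Csnk1d and Csnk1e, casein kinases that mark PER proteins for breakdown, had log2 fold changes of 0.13 and 0.17, and Btrc, a ubiquitin ligase subunit gene, 0.14. The rise of Btrc did not pass with DESeq2 or when any of 5 libraries was left out singly (euthyroid replicates 2, 3 and 5 and hypothyroid replicates 1 and 5). Timeless, which in mammals acts at replication forks and bears the name of a fly clock gene, rose 1.33-fold. Fbxl21 rose 1.93-fold at a low level, from 0.828 ± 0.163 to 1.60 ± 0.476 CPM (edgeR adjusted p = 0.00234).

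Of 9 genes known as widely rhythmic or as targets of the PAR bZIP factors, 8 were tested, and 6 of these fell, 0 rose and 2 did not pass, beside 34.1% of all genes tested that fell and 37.7% that rose. The direction of 2 of the 6, Alas1 and Nampt, turned under other scalings. Por, which encodes the electron donor of cytochrome P450 enzymes and is a PAR bZIP target in liver, fell most, 2.55-fold (118 ± 8.39 against 46.4 ± 2.21 CPM, edgeR adjusted p = 1.38e-11). Pdxk, the pyridoxal kinase gene and a PAR bZIP target in brain, fell 1.32-fold, and did not pass with library sizes alone (edgeR adjusted p = 0.0609). Alas1 and Nampt, genes of heme and NAD synthesis, had log2 fold changes of -0.16 and -0.14 as reported, 0.11 and 0.13 with library sizes alone, 0.0958 and 0.12 on FPKM, and 0.0611 and 0.0850 on TPM. Usp2, a deubiquitinase gene rhythmic in many tissues, fell 2.10-fold from 49.4 ± 15.8 to 23.5 ± 3.25 CPM, and Tspan4 1.74-fold. Tsc22d3 and Wee1 did not pass (edgeR adjusted p = 0.169 and 0.101). Nr1i3, another liver target, was too low to be tested, with 7 counts in all euthyroid libraries together and 32 in all hypothyroid ones.

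**Figure D4:**
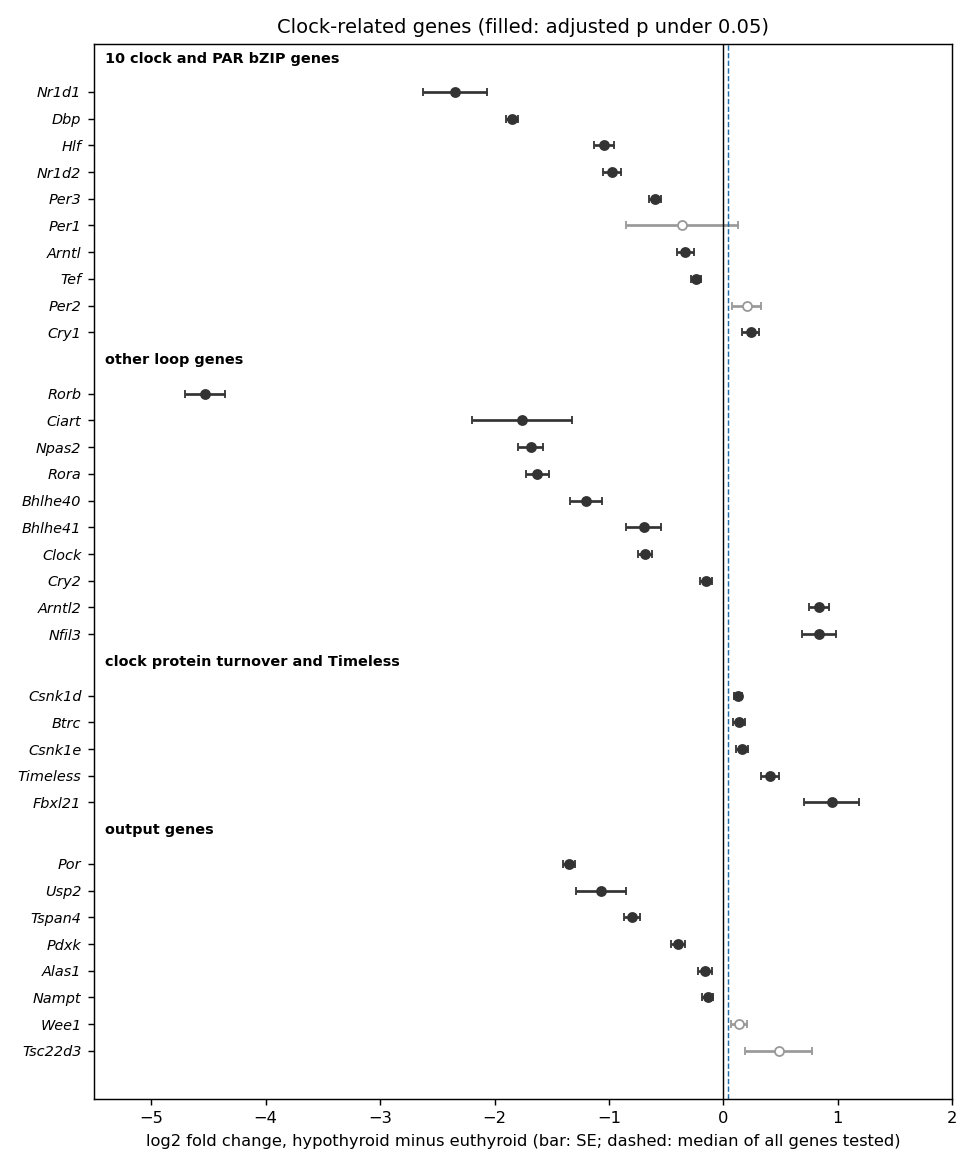
Log2 fold change (hypothyroid minus euthyroid) with its SE for the 10 genes and for the other loop, turnover and output genes, filled where the edgeR adjusted p was under 0.05, with a dashed line at the median of all genes tested. Rorb lies farthest to the left at -4.53, Nr1d1 and Dbp lead the 10 genes, and Fbxl21 lies farthest to the right at 0.95.

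Sequence near the annotated starts was examined because these genes are known to be driven through E-boxes, D-boxes and ROREs. The RefSeq table of GRCm38.p6 held 12 windows for 9 of the 10 genes, Per2 being the one not matched, each from 250 bases before to 50 bases after a start. Motifs were searched on both strands as CACGTG (E-box), CACGTT (E-prime-box), TTATGTAA or TTACGTAA (D-box), TAGGTCA (RORE half-site), a direct repeat of AGGTCA with 2 bases between (RevDR2, a REV-ERB site) or 4 (DR4, a thyroid hormone receptor site), and no match found overlapped with another kind. The sequences below, written on the strand of the gene, are those with a match, with the matched letters in capitals.

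Per3, 250 bases before the start, D-boxes in capitals (chr4:151044666-151044915, - strand): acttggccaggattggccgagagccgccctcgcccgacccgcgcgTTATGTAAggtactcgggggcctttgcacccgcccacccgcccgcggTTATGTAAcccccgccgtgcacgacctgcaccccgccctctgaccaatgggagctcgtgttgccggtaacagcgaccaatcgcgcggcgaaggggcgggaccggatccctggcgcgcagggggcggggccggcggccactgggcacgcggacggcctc
Cry1, E-prime-box in capitals (chr10:85185117-85185144, - strand): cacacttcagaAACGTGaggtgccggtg
Cry1, E-box in capitals (chr10:85185098-85185125, - strand): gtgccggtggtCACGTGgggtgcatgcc
Per1, E-box in capitals (chr11:69098772-69098799, + strand): gcacccaagtcCACGTGcagggatgtgt
Tef, E-box of the first start in capitals (chr15:81802535-81802562, + strand): tgctgtggctcCACGTGctgcagctggc
Tef, E-box of the second start in capitals (chr15:81811265-81811292, + strand): acctggcccagCACGTGtctacatcgtt
Nr1d1, E-prime-box in capitals (chr11:98775389-98775416, - strand): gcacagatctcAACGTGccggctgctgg
Arntl, RORE half-site in capitals (chr7:113207530-113207557, + strand): aaggcagaaagTAGGTCAgggacggagg

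Per3 held 2 copies of the D-box, beginning at positions -205 and -158 from its start, and 1.06% of all 32851 windows hold a D-box. An E-box stood in windows of Cry1 (at -60), Per1 (at -166) and Tef (at -127 and -138 from its 2 starts), which is 4 of 12 windows beside 7.15% of all windows. An E-prime-box stood at -79 in Cry1 and at -28 in Nr1d1, beside 4.68% of all windows, and the RORE half-site at position 31 after a start of Arntl, beside 2.61%. RevDR2 and DR4, which 3 and 5 of all windows hold, had no match in these 12, and neither Dbp, Hlf nor Nr1d2 had any of the letters searched in its window. The genes with an E-box match in these windows were Cry1, which rose, Tef, which fell slightly, and Per1, which did not pass. Sequence farther from the starts was not searched, and Per2 had no window. A match is a description of letters and was not tested as a binding site.

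**Figure D5:**
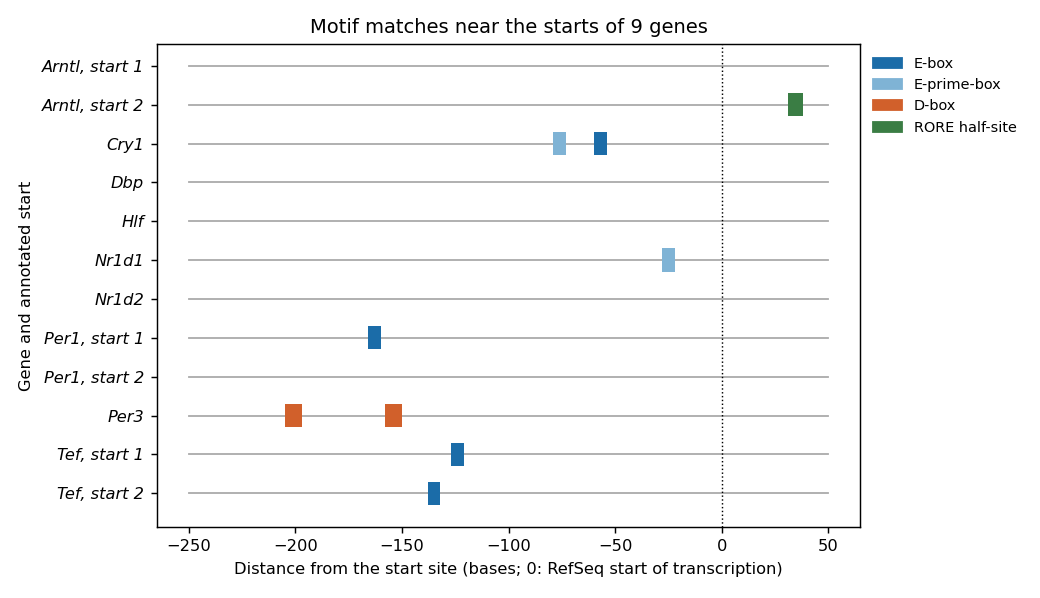
Position of each motif match in the 12 windows of 9 genes, by distance in bases from the annotated start of transcription, with 1 grey line per window and a colour per motif. The 2 D-boxes of Per3 begin at -205 and -158, and the E-boxes of Per1, Tef and Cry1 begin between -166 and -60.

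Genes with the nearest pattern over the 10 libraries were found by the root mean square distance of log2 CPM, each gene centred on its own mean, among 11983 other genes averaging 5 CPM or more. Nearest to Dbp were Shisa2 (distance 0.07), Plod2 (0.07) and Mmp15 (0.09), which had log2 fold changes of -1.82, -1.82 and -1.77. Nearest to Arntl were Lgalsl (0.07), Sema3c (0.08) and Ap1b1 (0.08), with log2 fold changes of -0.33, -0.31 and -0.30. The distance includes the difference between the groups, so like fold changes among neighbours follow largely from the rule. A gene that varies more within its groups also leaves more room for distance. For Per1, chosen after its values were seen, the nearest were Medag (0.38), Dusp15 (0.41) and Cebpd (0.43), so that no gene came as near to Per1 as others did to Dbp and Arntl. None of the named neighbours of Dbp and Arntl is a clock gene of the lists used here.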

How the data were processed

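RNA of 10 libraries was measured by sequencing, and the groups and replicate numbers were taken from the sample titles. Per the labels' protocols, polyadenylated RNA was read as single-end reads of 50 bases. RSEM 1.2.12, HISAT2 2.0.4 and Bowtie2 2.2.5 are named, without their roles, beside GRCm38.p6, per the submitters' processing notes. The authors deposited expected counts per gene and library, FPKM and TPM, the last 2 adjusted for gene length; 18 columns of scaled counts and group means were not used. The expected counts were rounded, filtered with filterByExpr (minimum count 10), scaled with TMM factors (means 0.912 euthyroid, 1.10 hypothyroid) and tested with the quasi-likelihood test of edgeR 4.0.16 (group only, two-sided, Benjamini-Hochberg over all 14862 genes). CPM uses TMM-scaled library sizes. SE is the absolute log2 fold change over the square root of F. Alternatives used limma 3.58.1 on log2 of FPKM or TPM plus a pseudocount and DESeq2 1.42.0. R 4.3.3 and Python 3.11.15 were used. The tests were checked on simulated data in which few genes changed, as many up as down. That check does not cover a comparison in which most genes are called and calls move with the scaling, as here.

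The 10 members, the gene lists and the values shown beside results were chosen with earlier results of these data known, and all members, Thra and the genes of the lists were to be named, of which some are not reported here, so counts over the loop, turnover and RORE lists cover only part of each list and are no summary of it; the 3 nearest genes were named for Dbp and Arntl, and for Per1 after its values were seen. Sphk2 was added because its exons overlap those of Dbp, with exon positions from GENCODE on GRCm38. The chi-square of counts per gene between libraries of the same group ran from 5.31 to 15.7 (20 pairs), above sampling noise, so none was treated as a duplicate. The labels do not say whether libraries came from separate animals, so p-values measure only the spread between these libraries, which may be partly technical.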

Additional observations from a re-analysis of the deposited data

Results flagged for a closer look

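Among 47 named genes in 2 groups of 5 libraries each, 7 of 94 sets had a library far from the others by Dixon's criterion, where chance gives about 5%, and none of the 7 was in one of the 10 clock and PAR bZIP genes. Thra was lowest in euthyroid replicate 4 at 161 CPM, with the others at 175 to 179.8 CPM. In the same library Cry2 was highest at 60.4 CPM, with the others at 52.3 to 54.4 CPM. Dusp1 was highest in hypothyroid replicate 2 at 22.6 CPM (others 12.8 to 15.1 CPM). Hypothyroid replicate 1 was highest for Tspan4 at 35.8 CPM (others 29.3 to 30.8 CPM) and for Ier2 at 31.5 CPM (others 26.1 to 27.5 CPM), and lowest for Atf3 at 1.17 CPM (others 1.49 to 1.57 CPM). Atf3 was also highest in euthyroid replicate 5 at 4.71 CPM, with the others at 1.24 to 2.09 CPM.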

How the results depend on the processing

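Dbp, Hlf, Nr1d1, Nr1d2, Per3 and Cry1 kept their direction and call under every alternative of scaling, filter, test, unit, replicate block and left-out library. With library sizes alone 8650 genes were higher and 2928 lower, against 5603 and 5064 as reported (74.7% and 52.5% of called genes higher; 62.5% with upper quartile factors). Limma called 2652 lower genes on FPKM, 3115 on TPM, 3114 with a pseudocount of 0.1, and 8473 higher genes with no filter. Called members that were higher numbered 2 in place of 1, by Per2, with library sizes alone, upper quartile factors, the replicate block and each limma fit. Tef had 0.0285 with library sizes alone and 0.0249 on FPKM, and Per1 had 0.0027 on FPKM. Arntl kept its direction but did not pass with library sizes alone or in any limma fit. With library sizes alone, on FPKM, on TPM (with or without the filter) and with the pseudocount of 0.1, Cry2 had 0.12, 0.11, 0.0722 and 0.0742, Nampt 0.13, 0.12, 0.0850 and 0.0866, and Alas1 0.11, 0.0958, 0.0611 and 0.0624. None of these settings uses the TMM factors, and with library sizes alone the median over all genes tested was 0.30, beside 0.04 as reported. Which scaling lies nearer to the tissue was not tested. Nr1d1 had 0.46 with the counts of Thra added and Thra alone 0.84, by construction. Btrc did not pass with DESeq2 or without any of 5 libraries taken singly, Alas1 without any of 5 and Nampt without either of 2. Leaving out 1 library gave 5316 to 5539 higher and 4925 to 5150 lower genes, and 1 and 7 members in each case. Same-numbered libraries of the 2 groups had correlations of deviations over all genes from -0.08 to 0.11. Such low values cannot exclude that the numbers pair libraries for some genes, and this was not tested. The replicate block gave 5453 higher and 4939 lower genes and an edgeR adjusted p of 0.0288 for Per2. The ratios within libraries kept their calls on TPM and without each library, alternatives added after seeing the data. For ratios whose groups did not overlap, leaving out a library could not change the call, so that result was fixed in advance.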
